A study of Mus musculus with 8 samples.

Results

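The nuclear genes for respiratory complexes II to V were followed in mouse 3T3-L1 adipocytes with and without overexpression of the microRNA miR-690. Members were taken by symbol from the 10663 genes of the deposited table. The rule took the succinate dehydrogenase genes (Sdha to Sdhd), all symbols that begin with Uqcr, the cytochrome genes Cyc1 and Cycs, symbols that begin with Cox and a number from 4 to 8, and all symbols that begin with Atp5. It found 43 genes, which are 4 for complex II, 9 for complex III, 12 for complex IV, 17 for complex V and Cycs, which encodes the mobile carrier cytochrome c. Of the genes taken by symbol, Atp5s and Dmac2 (listed under its older name Atp5sl) are not subunits of the ATP synthase. Genes of the mitochondrial genome, which encode the catalytic core of complex IV among others, were not listed and are not analysed here.

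RNA was sequenced from 4 control libraries and 4 libraries labelled miR-690oe. 3T3-L1 is an embryonic mouse fibroblast line, derived as a single clone, that can be turned into fat cells in culture. All cells were grown in a high-glucose medium with serum, and RNA was isolated with a Zymo kit. The labels give the same treatment for every library, the controls included, which is 5 pM of a miR-690 mimic for 500000 cells. Any other treatment of the control cells was not given in the sources used here. Nothing in the labels ties the libraries to separate cultures. The p-values therefore measure no more than how far these libraries lie apart, and that spread may be technical. The labels name the microRNA as miR-690-5p, and RefSeq (build GRCm38.p6) places mature miR-690 on the minus strand at chr16:28599940-28599961. Its sequence is shown because the group is defined by it, with the seed, bases 2 to 8, in capitals.
mmu-miR-690: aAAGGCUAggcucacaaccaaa

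Complex II oxidises succinate in the citric acid cycle and passes the electrons to ubiquinone, complex III passes them from ubiquinone to cytochrome c, and complex IV passes them from cytochrome c to oxygen. Complexes III and IV pump protons while they do so, and complex V, the ATP synthase, lets protons flow back and makes ATP. Fat cells build up mitochondria as they differentiate, and most subunits of these complexes are encoded in the nucleus and imported.

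In miR-690oe adipocytes 37 of the 43 genes fell and none rose (limma adjusted p under 0.05, over 10658 tested genes). The reductions were small, and the median log2 fold change was -0.22, against 0.02 over all tested genes. Among all tested genes 17.4% were called lower and 26% higher, while 86% of the complex genes were called lower. Of the genes called over the whole table, 2773 were higher and 1853 lower, a split that was 2355 and 2360 with TMM scaling and 2207 and 2545 with quantile normalization; all 37 complex genes stayed below 0 under each of these and under median-of-ratios scaling, and 36 of them were called under each of the 3. No complex gene was higher at an unadjusted p under 0.05 either, and 38 were lower. The miR-690oe libraries lay wholly below the control libraries for 33 of the 43 genes (76.7%), which was so for 15.9% of all tested genes. By the authors' deposited table, 38 of the 43 genes were lower at a false discovery rate under 0.05 and none was higher, against 20.6% of all listed genes that were lower there. The 37 genes called here were all among those 38.

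A trend with transcript length ran through the whole table. Other genes with an annotated transcript of at most 1 kb had a median log2 fold change of -0.21, and those over 4 kb had 0.20. The complex genes are short, with a median transcript of 865 nt against 2953 nt over all genes. When a smooth trend over transcript length and GC content was removed in each library, 10 of the 43 genes (23.3%) were called lower and none higher, and their median log2 fold change was -0.08. The background in that fit was 9.65% of genes lower and 8.18% higher. At an unadjusted p under 0.05 in that fit, 20 complex genes were lower and 1 was higher. The 10 were also among the 37, and their number fell to 5 without control replicate 2 and to 5 without control replicate 4. Of the 10, Atp5g1, Cycs, Sdhc and Uqcrq had the lowest limma adjusted p in the fit of all 8 libraries. Their annotated 3' UTRs are 4255, 2677, 2639 and 1137 nt long, so their values with the trend removed rest on that annotation. Values with this trend removed are given below for each group of genes, and the plot of fold changes shows them for all 43.

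**Figure D1:**
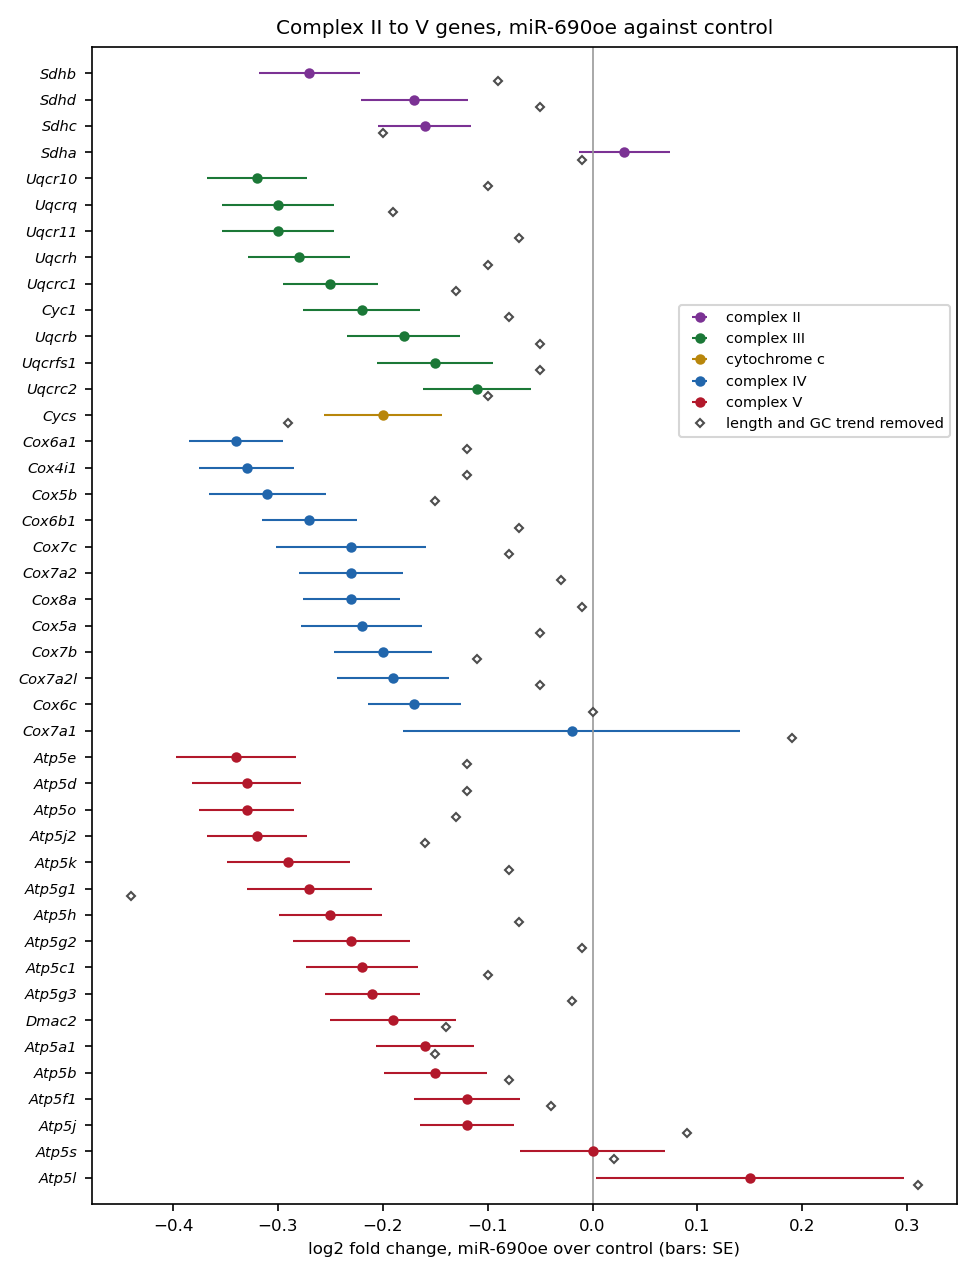
Log2 fold change of each of the 43 genes, miR-690oe over control, grouped by complex. Points give the fitted value with its standard error and open diamonds the value with the length and GC trend removed; 41 of the 43 points lie below 0, and most diamonds lie closer to 0 than their points.

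The libraries held 29773446 to 38235522 reads over the listed genes, and 41 of the complex genes had at least 360 reads in every library. Among the miR-690oe libraries, replicate 1 stood apart, with a chi-square per gene of 17 to 21.9 against each of the others, which differed from each other by 9.49 to 11.7. It was the lowest of its group for 32 of the 43 genes, and control replicate 2 was the highest of its group for 37. Without miR-690oe replicate 1, 35 complex genes were called lower with a median of -0.18, and without control replicate 2, 31 were called lower with a median of -0.20. Adipocyte markers were present, with 10 of 11 listed (Lep was not), and their summed level was 12339.9 to 13699 CPM (counts per 1000000 reads of the listed genes) in controls and 10702 to 13929.7 CPM in miR-690oe. The marker counts that follow stand beside 17.4% of all tested genes called lower and 26% called higher. With the length and GC trend removed these shares were 9.65% and 8.18%. Of the 10 adipocyte markers, 2 fell (Cidec and Cfd, limma adjusted p = 0.0349 and 0.0395) and none rose, although the groups overlapped for both. Each of these calls was lost in 5 of the 8 fits that left out 1 library (adjusted p up to 0.12 and 0.14), and neither gene was called with the trend removed, at -0.08 and -0.02. Of 10 listed fibroblast markers 4 rose and 2 fell; with the trend removed none rose and 1 fell (Dlk1 at -0.22), and their median transcript is 5179.5 nt long. Their sum was 11747 to 13361 CPM in controls and 11106 to 14616 CPM in miR-690oe. Of 7 macrophage markers 3 were listed, with a sum of 24.1 to 27.9 CPM in controls and 21.4 to 24.1 CPM in miR-690oe; 2 of them fell, and none was called with the trend removed. The part of these markers in the results was not tested, and in bulk RNA fewer cells of a type and less RNA per cell cannot be told apart.

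Summed over the 43 genes, the level was 14538, 15216, 14021 and 14329 CPM in control replicates 1 to 4 and 11829, 12937, 12576 and 12999 CPM in miR-690oe replicates 1 to 4. Every miR-690oe library lay below every control library, and the ratio of the means was 0.866. By complex, the ratio was 0.923 for II, 0.856 for III, 0.832 for IV and 0.875 for V. For complex II the groups met, with 1124 CPM in both control replicate 3 and miR-690oe replicate 2. The sums of complexes III, IV and V did not overlap between the groups.

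**Figure D2:**
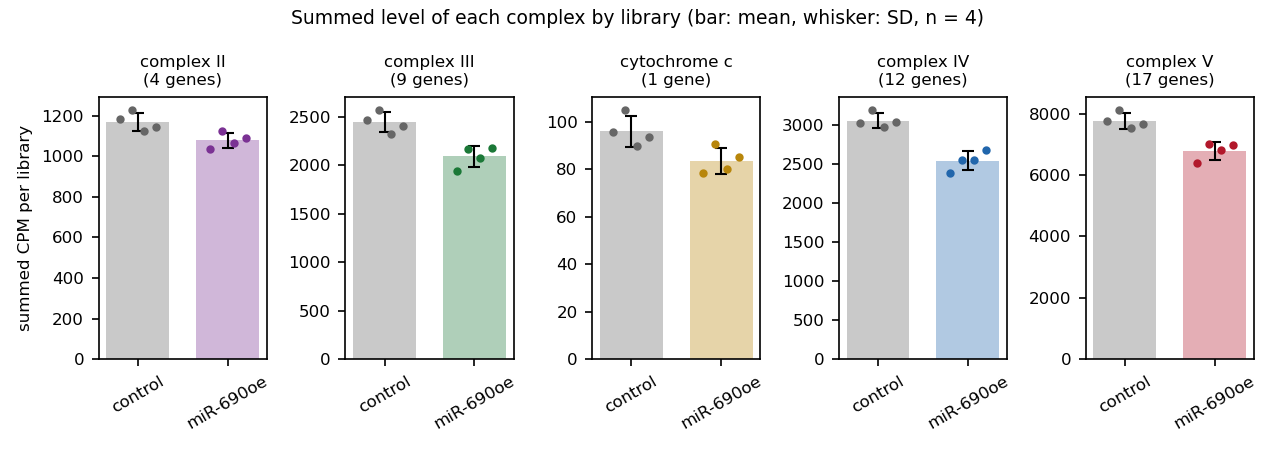
Summed CPM of the genes of each complex in each of the 8 libraries, with the mean and SD of each group. The miR-690oe points lie below the control points for complexes III, IV and V, while the groups meet at 1124 CPM for complex II.

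In complex II, 3 of 4 genes fell, and the gene of the subunit that binds succinate was not called. Sdhb, the iron-sulfur subunit (chr4:140961203-140979193, plus strand of mm10), stood at 211, 225, 202 and 207 CPM in control replicates 1 to 4 and at 162, 178, 183 and 179 CPM in miR-690oe replicates 1 to 4. All 4 miR-690oe libraries were lower than all controls, with a log2 fold change of -0.27 ± 0.0485 (SE, limma adjusted p = 0.000434), or 0.831 of the control level. Sdhc, a membrane anchor of the complex, had 256, 264, 239 and 249 CPM in controls and 214, 226, 229 and 234 CPM in miR-690oe. Its groups did not overlap, and its log2 fold change was -0.16 ± 0.0445 (limma adjusted p = 0.00881). Sdhd, the other anchor, had 319, 337, 305 and 313 CPM in controls and 262, 310.1, 280.3 and 279 CPM in miR-690oe. Only miR-690oe replicate 2 reached into the control range, and the log2 fold change was -0.17 ± 0.0512 (limma adjusted p = 0.0125, and 0.0516 without control replicate 2). Sdha, the flavoprotein that carries the catalytic site, had 395, 402, 378 and 374 CPM in controls and 398, 411, 374 and 396 CPM in miR-690oe. Its groups lay over each other, with a log2 fold change of 0.03 ± 0.0434 (SE, limma adjusted p = 0.633). Once the length and GC trend was removed Sdhc kept its call at -0.20 (limma adjusted p = 0.00429), while Sdhb had -0.09, Sdhd -0.05 and Sdha -0.01, none of them called. The value of Sdhc rests on an annotated transcript of 3171 nt, of which 2639 nt are 3' UTR.

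In complex III, 8 of 9 genes fell, with a median log2 fold change of -0.25, and the 5 small subunits that surround the catalytic core all fell, with a median of -0.30. Uqcr10 encodes one of these small subunits (chr11:4701973-4704342, minus strand). It had 185, 196, 179.6 and 185 CPM in controls and 143, 147, 147 and 162 CPM in miR-690oe. The groups were well apart, with a log2 fold change of -0.32 ± 0.0477 (SE, limma adjusted p = 0.000103). Uqcrh, the hinge protein that helps cytochrome c bind, had 279, 291, 269 and 289 CPM in controls and 217, 223, 248 and 239 CPM in miR-690oe. Its log2 fold change was -0.28 ± 0.0487 (limma adjusted p = 0.000292), again with no overlap. Uqcr11, a further small subunit, had 152, 161, 146 and 156 CPM in controls and 118, 119.6, 123 and 139.8 CPM in miR-690oe, with miR-690oe replicate 4 nearest to the controls. The log2 fold change of Uqcr11 was -0.30 ± 0.0535 (limma adjusted p = 0.000431). Uqcrq and Uqcrb, small subunits that lie near the ubiquinone sites, fell by 0.30 and 0.18 on the log2 scale; without control replicate 2 the limma adjusted p of Uqcrb was 0.0558.

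The core proteins of complex III, which are related to processing peptidases, differed in whether they passed the test. Uqcrc1 (chr9:108936633-108949623, plus strand) had 479, 488, 445 and 454 CPM in controls and 375, 408, 384 and 402 CPM in miR-690oe. All miR-690oe libraries were below all controls, with a log2 fold change of -0.25 ± 0.045 (SE, limma adjusted p = 0.00043). Uqcrc2 had 375, 366, 333 and 352 CPM in controls and 309, 360, 329 and 326 CPM in miR-690oe. Here the groups overlapped, with a log2 fold change of -0.11 ± 0.0514 (SE, limma adjusted p = 0.103), and the difference between Uqcrc1 and Uqcrc2 was not tested. The redox subunits fell by 0.22 (Cyc1, which carries the heme that reduces cytochrome c) and by 0.15 (Uqcrfs1, the Rieske iron-sulfur protein) on the log2 scale. The call for Uqcrfs1 (limma adjusted p = 0.0336) was lost without control replicate 1, control replicate 2 or miR-690oe replicate 1, with adjusted p-values of 0.0665, 0.119 and 0.0941. Once the length and GC trend was removed, Uqcrq had -0.19 (limma adjusted p = 0.00753) and Uqcrc1 -0.13 (limma adjusted p = 0.0444), and the other 7 genes of complex III were not called. The value of Uqcrq rests on an annotated transcript of 1521 nt, of which 1137 nt are 3' UTR.

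Cycs, the cytochrome c that shuttles between complexes III and IV, had 95.6, 105, 89.7 and 93.4 CPM in controls and 78.5, 90.7, 80.2 and 85.1 CPM in miR-690oe. Only miR-690oe replicate 2 lay above the lowest control, and the log2 fold change was -0.20 ± 0.0565 (limma adjusted p = 0.0103). After removal of that trend the value was -0.29 (limma adjusted p = 0.00371), based on an annotated transcript of 3123 nt.

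In complex IV, cytochrome c oxidase, 11 of 12 genes fell, with a median log2 fold change of -0.23. All 12 encode nuclear subunits that surround the mitochondrially encoded core, or relatives of them. Cox6a1 (chr5:115345642-115348981, minus strand), the isoform of subunit VIa found outside heart and skeletal muscle, had 413, 451, 431 and 424 CPM in controls and 334, 331, 331 and 364 CPM in miR-690oe. No miR-690oe library reached the controls, and the log2 fold change was -0.34 ± 0.0449 (limma adjusted p = 3.74e-05), or 0.791 of the control level. Cox4i1, a regulatory subunit that binds adenine nucleotides, had 681, 703, 651 and 684 CPM in controls and 503, 554, 549 and 560.1 CPM in miR-690oe. The libraries again fell into separate ranges, with a log2 fold change of -0.33 ± 0.0454 (SE, limma adjusted p = 5.06e-05). Cox6b1, a subunit on the intermembrane side, had 327, 339, 309 and 322 CPM in controls and 252, 269, 276 and 281 CPM in miR-690oe. Its log2 fold change was -0.27 ± 0.0457 (limma adjusted p = 0.000299). Cox5b, a zinc-binding subunit on the matrix side, had 185, 212, 199.9 and 202 CPM in controls and 152, 151, 165 and 178 CPM in miR-690oe, where replicate 4 came closest to the lowest control. The log2 fold change of Cox5b was -0.31 ± 0.0561 (limma adjusted p = 0.000466). The subunit genes Cox8a, Cox7c, Cox5a, Cox7b and Cox6c fell by 0.23, 0.23, 0.22, 0.20 and 0.17 on the log2 scale.

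Of the Cox7a family, 2 of 3 genes fell. Cox7a2, the isoform of most tissues, had 181, 189, 178 and 178 CPM in controls and 143, 153, 155 and 169 CPM in miR-690oe. Its groups were separate, with a log2 fold change of -0.23 ± 0.0495 (SE, limma adjusted p = 0.00165). Cox7a2l, a relative that helps join complexes III and IV into supercomplexes, had 157, 161, 145 and 157 CPM in controls and 124, 137, 148 and 134 CPM in miR-690oe, with miR-690oe replicate 3 inside the control range. Cox7a2l fell by 0.19 on the log2 scale (SE 0.0534, limma adjusted p = 0.00831). Cox7a1, the isoform of heart, skeletal muscle and brown fat, was close to the detection limit, at 0.948, 0.911, 0.504 and 0.769 CPM in controls and 0.68, 0.854, 0.668 and 0.801 CPM in miR-690oe. These values are 15 to 29 reads per library, and its log2 fold change of -0.02 ± 0.161 (SE, limma adjusted p = 0.917) does not show that it differs from the other two. Of 9 muscle markers only Des was listed, at 23.6 to 26.6 CPM in controls and 19 to 22.5 CPM in miR-690oe. Des fell by 0.26 on the log2 scale (limma adjusted p = 0.00398), and by 0.25 with the length and GC trend removed (limma adjusted p = 0.0103). Of 7 brown fat markers only Ebf2 and Ppargc1a were listed, with a sum of 17.7 to 20.1 CPM in controls and 21.6 to 27.4 CPM in miR-690oe, and Ucp1 was not. Once the length and GC trend was removed, Cox5b (-0.15, limma adjusted p = 0.0333) and Cox6a1 (-0.12, limma adjusted p = 0.0309) were called and the other 10 genes of complex IV were not. Cox4i1 then had -0.12 (limma adjusted p = 0.0636) and Cox6c 0.00.

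In complex V, 14 of 17 genes fell, with a median log2 fold change of -0.22, and these included all 5 genes of the catalytic head and its stalk. Atp5d, the delta subunit of the rotor (chr10:80138632-80145818, plus strand), had 311, 335, 288 and 301 CPM in controls and 236, 243, 239.7 and 266 CPM in miR-690oe. Every miR-690oe library was below every control, with a log2 fold change of -0.33 ± 0.0517 (SE, limma adjusted p = 0.00016). Atp5e, the small epsilon subunit of the rotor, had 179, 181, 166 and 174 CPM in controls and 124, 132, 145 and 152 CPM in miR-690oe. Its log2 fold change was -0.34 ± 0.0574 (limma adjusted p = 0.000251), and its groups did not overlap. The gamma subunit gene Atp5c1, whose protein turns inside the head, fell by 0.22. Atp5a1 and Atp5b, the alpha and beta subunits that form the catalytic hexamer, fell by 0.16 and 0.15 on the log2 scale. Once the length and GC trend was removed, Atp5a1 had -0.15 and was called, while Atp5e and Atp5d had -0.12 each, Atp5c1 -0.10 and Atp5b -0.08 and were not. Atp5b had a mean of 2389 ± 104 CPM in the control group and 2152 ± 94.2 CPM with miR-690oe (SD, n = 4 each). Its limma adjusted p of 0.0197 became 0.0839 without control replicate 2 and 0.0575 without miR-690oe replicate 3.

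Of the 4 genes of the peripheral stalk, which holds the head in place, 3 fell. Atp5o, which joins the stalk to the head (chr16:91925214-91931687, minus strand), had 439, 452, 423 and 439 CPM in controls and 324, 346, 359.9 and 365 CPM in miR-690oe. The groups were far apart for this gene, with a log2 fold change of -0.33 ± 0.0451 (SE, limma adjusted p = 4.64e-05). Atp5h, the d subunit of the stalk, fell by 0.25 on the log2 scale (limma adjusted p = 0.000693). Atp5j, the coupling factor of the stalk, had -0.12 (limma adjusted p = 0.0378), and this call was lost in 6 of the 8 fits that left out a library. Its direction turned once the length and GC trend was removed, to 0.09 (limma adjusted p = 0.09). Atp5f1, the b subunit, had 373, 391, 378 and 373 CPM in controls and 312, 353, 374 and 355 CPM in miR-690oe. Only miR-690oe replicate 3 lay in the control range, and Atp5f1 missed the threshold at -0.12 ± 0.0507 (SE, limma adjusted p = 0.0627), while the authors' deposited table gave it a false discovery rate of 0.0336. Exons of Atp5j overlap those of Gabpa on the opposite strand, exons of Atp5f1 those of Wdr77, and exons of Atp5a1 those of Haus1. Whether the counting used strand was not given in the sources used here, so reads in these overlaps cannot be told apart.

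The 3 genes of the membrane ring of c subunits, Atp5g1, Atp5g2 and Atp5g3, encode the same mature protein with different import sequences. Atp5g3 had 689.5, 731, 681 and 683 CPM in controls and 561, 621, 610 and 623 CPM in miR-690oe. Atp5g1 had 90.9, 91.6, 87.9 and 87.6 CPM in controls and 69.7, 67.5, 77.2 and 83.5 CPM in miR-690oe. Atp5g2 had 40.6, 41.9, 42.3 and 39.5 CPM in controls and 37.3, 32, 34.8 and 36 CPM in miR-690oe. All 3 fell with no overlap between the groups, by 0.21 for Atp5g3, 0.27 for Atp5g1 and 0.23 for Atp5g2 on the log2 scale (limma adjusted p = 0.00198, 0.00191 and 0.00372). The GENCODE annotation holds 2 pseudogenes, neither of them listed, that match Atp5g2 at 100% identity over 645 and 441 nt. The values and share of Atp5g2 are therefore less certain. Of the summed CPM of the 3 genes, Atp5g3 made up 84.2% ± 0.291 in controls and 84.6% ± 1.06 in miR-690oe (SD, n = 4 each). Exact permutation tests of the 3 shares gave two-sided p = 0.686 for Atp5g3, 0.486 for Atp5g1 and 0.743 for Atp5g2, each 0.743 after Benjamini-Hochberg adjustment, where the smallest p possible is 0.0286. After removal of that trend Atp5g1 had -0.44 (limma adjusted p = 0.000545), which rests on an annotated transcript of 4715 nt with a 3' UTR of 4255 nt, while Atp5g3 had -0.02 and Atp5g2 -0.01.

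Among the other membrane subunits, Atp5j2, the f subunit, had 328, 349, 331 and 343 CPM in controls and 254, 269, 267 and 296 CPM in miR-690oe. The ranges were separate, with a log2 fold change of -0.32 ± 0.0478 (SE, limma adjusted p = 0.000106). Atp5k, the e subunit, which helps the synthase form dimers, had -0.29 ± 0.0584 (SE, limma adjusted p = 0.000886). Atp5l, the g subunit, was listed at 0.719, 0.683, 0.638 and 0.621 CPM in controls and at 0.758, 0.671, 0.814 and 0.929 CPM in miR-690oe, which is 19 to 29 reads per library. The GENCODE annotation holds 9 near-identical copies of it, none of them listed in the table, so this value is uncertain, as is its log2 fold change of 0.15 ± 0.147 (SE, limma adjusted p = 0.442). Near-identical copies were found for 8 of the 43 genes (at least 95% identity over at least 50% of the transcript), and 30 of the 35 genes without one fell, with a median of -0.22. The 8 are Atp5c1, Atp5g2, Atp5h, Atp5k, Atp5l, Atp5o, Cox7c and Uqcrb. Atp5s, also called factor B, had 11.8, 12.8, 13 and 13.3 CPM in controls and 12.1, 12.4, 13.8 and 12.6 CPM in miR-690oe. These ranges lay over each other, with 0.00 ± 0.0692 on the log2 scale (limma adjusted p = 0.992). Dmac2, an assembly factor of complex I, had -0.19 ± 0.06 (SE, limma adjusted p = 0.0197), and 0.0691 without control replicate 2 and 0.0502 without miR-690oe replicate 3. After removal of that trend, Atp5g1, Atp5j2 (-0.16, limma adjusted p = 0.00944), Atp5a1 (-0.15, limma adjusted p = 0.0294) and Atp5o (-0.13, limma adjusted p = 0.0179) were called in complex V.

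**Figure D3:**
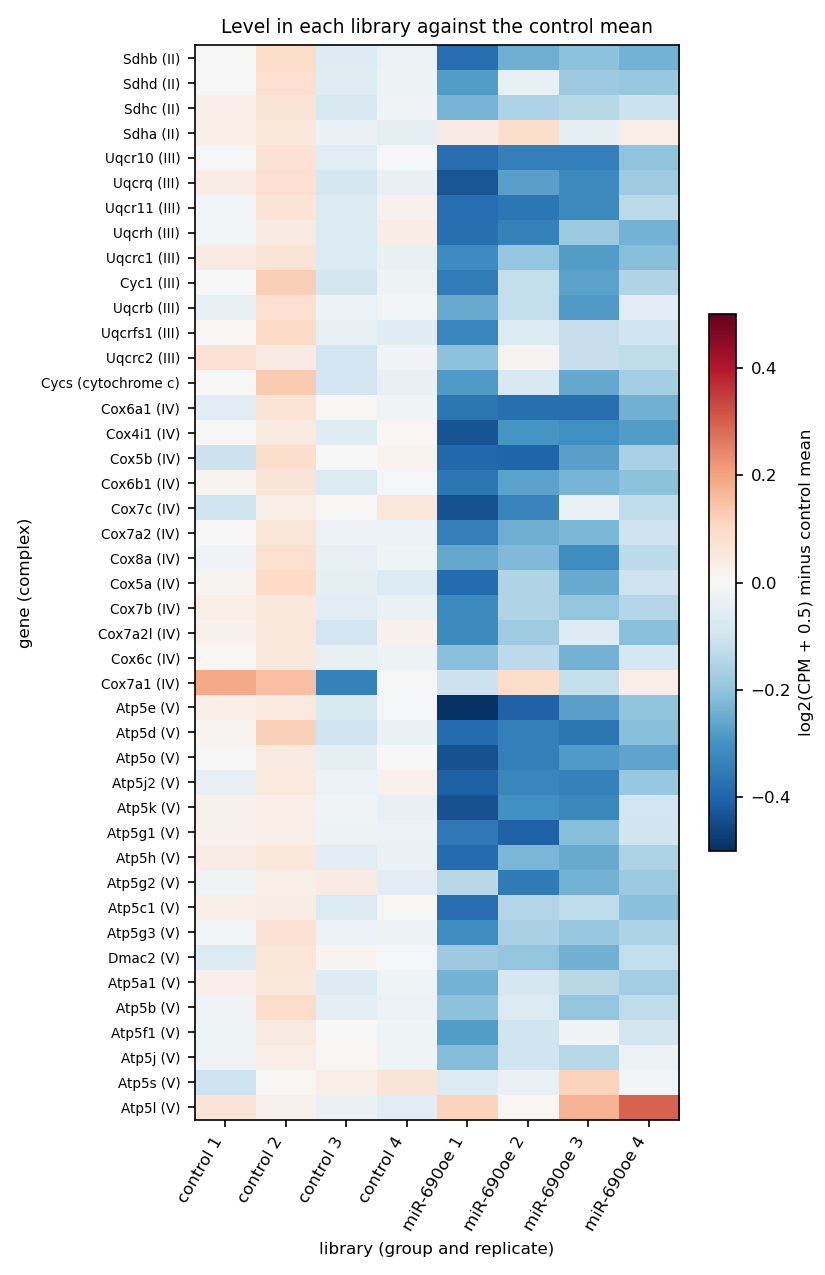
Log2 deviation of each of the 43 genes from its control mean in each of the 8 libraries, grouped by complex (blue below, red above). The miR-690oe columns are blue for nearly all genes, most deeply in replicate 1, where the median shift is -0.33, and least in replicate 4, where it is -0.15.

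Across genes, levels per transcript length in controls ranged from 1247 CPM per kb for Atp5b, 975 for Atp5g3 and 889 for Cox4i1 down to 7.95 for Atp5s, 1.99 for Cox7a1 and 1.22 for Atp5l. The length used is that of the annotated principal transcript, so a gene whose cells use another transcript is misplaced on this scale.

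The complex genes were set beside other genes of their own length. Of the 24 complex genes of at most 1 kb, 22 fell (91.7%) with a median log2 fold change of -0.26, while 60.7% of the other 677 genes of that length fell, with a median of -0.21. Between 1 and 2 kb, 10 of 13 complex genes fell (76.9%) with a median of -0.19, against 39.1% and -0.12 for the others. Between 2 and 4 kb, 4 of 5 fell with a median of -0.16, against 10.5% and 0.01. Atp5g1 was the only one over 4 kb. Members of a length band share libraries, so these shares are a description and carry no test. In single libraries, the log2 deviation from the control mean changed with each doubling of transcript length by -0.02 to 0.01 in controls and by 0.20, 0.15, 0.14 and 0.10 in miR-690oe replicates 1 to 4. The median shift of the complex genes was -0.33, -0.19, -0.23 and -0.15 in those 4 libraries, and that of other genes of at most 1 kb was -0.29, -0.23, -0.20 and -0.12. Replicate 1 had the largest and replicate 4 the smallest value for both slope and shift of the complex genes. Replicates 2 and 3, with slopes of 0.15 and 0.14, stood in the opposite order for the 2 measures, and this was not tested. RNA quality was not given in the sources used here, and the part of the length trend in the lower complex genes was tested only by the fits that removed it.

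**Figure D4:**
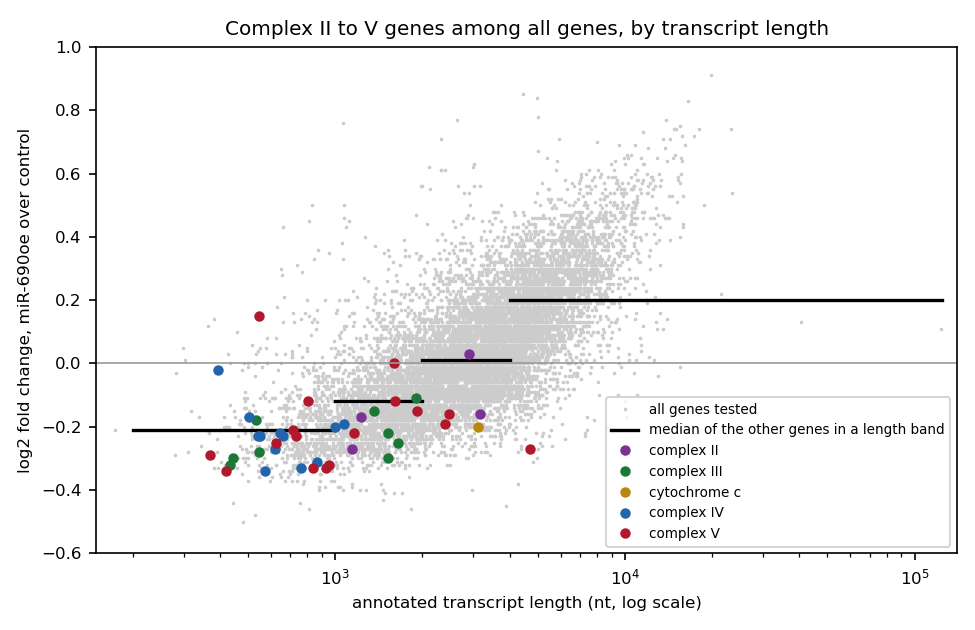
Log2 fold change of all tested genes (grey) against annotated transcript length on a log scale, with the complex genes coloured and the median of the other genes drawn for each length band. Most complex genes lie at the short end, where the other genes have a median of -0.21; Atp5g1, Cycs and Sdhc lie below the band medians at greater lengths.

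Genes that build or serve the complexes were taken from lists of assembly factors, regulators, and carriers. The counts that follow stand beside 17.4% of all tested genes called lower and 26% called higher. With the length and GC trend removed these shares were 9.65% and 8.18%. The median transcript is 1636 nt for the listed assembly factors, 1612 nt for the carriers, channels and inhibitor, and 892 nt for complex I. Of the other genes, 60.7% fell at up to 1 kb and 39.1% between 1 and 2 kb. Of 37 listed assembly factors, 23 fell and 3 rose, with a median log2 fold change of -0.18. Those with the lowest adjusted p were Higd2a, Coa3, Tmem242 and Uqcc2, at -0.26, -0.27, -0.24 and -0.30 (limma adjusted p = 0.000508 to 0.000836). Higd2a and Coa3 serve complex IV, Tmem242 complex V and Uqcc2 complex III. None of these 4 was called with the trend removed, where they had -0.05, -0.07, -0.07 and -0.08 (limma adjusted p = 0.246 to 0.365). The 3 that rose, named after their values were seen, were Ttc19 (0.22), which serves complex III, Lrpprc (0.18), which stabilises mitochondrial messenger RNA, and Coa5 (0.13). The call for Coa5 was lost in 6 of the 8 fits that left out 1 library (adjusted p up to 0.125), and with the trend removed none of these 3 was called, at 0.13, 0.03 and 0.02. Other assembly factors were called in that fit (16.2% of the 37 were lower), also named after their values were seen. These were Sdhaf1, Sdhaf2, Sdhaf3, Cox17, Cox19 and Coa7, which were lower at -0.28, -0.24, -0.32, -0.31, -0.20 and -0.27, and Cox11, which was higher at 0.20 (limma adjusted p = 0.0418). With the trend left in, Sdhaf3 and Cox11 were not called (limma adjusted p = 0.204 and 0.433). The groups overlapped for each of these named genes except Sdhaf1. With the trend left in, Cox17 and Coa7 lost their calls without some single libraries (limma adjusted p up to 0.106 and 0.11). The trend-removed values of Sdhaf1 and Cox19 rest on annotated transcripts of 2490 and 2461 nt. The carriers of ADP, ATP and phosphate, the outer membrane channels and the inhibitor of the ATP synthase all fell, 7 of 7, with a median of -0.15. Of these calls 3 were lost in at least 1 fit that left out a library, for Slc25a3, Vdac2 and Slc25a5 without control replicate 2 (limma adjusted p = 0.0521, 0.0786 and 0.121), for Vdac2 also without control replicate 1 or miR-690oe replicate 1, and for Slc25a5 in 4 more of these fits. Of the 7, Atpif1, the inhibitor, had -0.30 and Slc25a4, an ADP and ATP carrier, -0.15 (limma adjusted p = 0.000358 and 0.00709). After removal of that trend none of the 7 was called in limma, and 4 were lower at an unadjusted p under 0.05. For complex I, which feeds the same chain, 34 of 36 listed subunit genes (94.4%) fell with a median of -0.25, led by Ndufa11 at -0.36. With the trend removed 8 of the 36 (22.2%) were called lower.

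Of 13 listed nuclear regulators of these genes, 5 rose and none fell in limma, where 1 was lower at an unadjusted p under 0.05. This stands beside 26% of all tested genes that rose. The regulators have a median transcript of 3755 nt, and of the other genes 14.8% rose between 2 and 4 kb and 62.2% over 4 kb. Ppargc1b, a coactivator of mitochondrial genes, rose from 8.52 ± 0.383 to 11.4 ± 0.737 CPM (SD, n = 4 each; log2 fold change 0.40, limma adjusted p = 0.000486). Gabpb2 and Gabpa, subunits of the factor that binds many promoters of this kind, had 0.36 and 0.19, and Pprc1, a relative of Ppargc1b, had 0.31 (limma adjusted p = 0.000288, 0.00716 and 0.000829). The fifth, Ppargc1a, had 0.29 (limma adjusted p = 0.0207). Its limma adjusted p was 0.0508 when control replicate 4 was left out and 0.083 when miR-690oe replicate 2 was left out. Once the length and GC trend was removed, Ppargc1b at 0.38 and Pprc1 at 0.17 stayed called (limma adjusted p = 0.00145 and 0.0421). Gabpb2, Gabpa and Ppargc1a then had 0.02, -0.03 and -0.01 and were not called. In the same fit Nrf1 was called higher (0.13, limma adjusted p = 0.0497). Tfam, which packs and transcribes mitochondrial DNA, was called lower (-0.15, limma adjusted p = 0.0324).

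Promoters and 3' UTRs of the complex genes were searched for short sequences. RefSeq promoters (250 bases before to 50 after the start, build GRCm38.p6) were held for 35 of the 43 genes. In all, 9 letter strings for 5 elements were searched on both strands, chosen with the results known, and 1 string each for NRF1, GABPA and YY1 is described here. The NRF1 letters CGCATGCG, which read the same on both strands, were in 8 of 35 promoters (22.9%), in 4.76% of the 8526 promoters of listed genes and in 2.07% of all 27025. The GABPA letters CCGGAAG were in 12 of 35 (34.3%), against 22.1% of listed and 9.93% of all promoters. For YY1, AAGATGGCG was in 3 of 35 (8.57%), against 4.06% and 1.64%. Of the 6 strings left aside, 4 were longer or shorter forms of these. The longer GABPA form was in 11.4% of the complex promoters, close to the 10.3% of listed ones. The longer NRF1 form was in 11.4% against 2.57%, the shorter NRF1 form in 25.7% against 7.83% and the shorter YY1 form in 11.4% against 5.86%. The rest of the 6 were an ESRRA string, in 8.57% against 1.16%, and the TATA box, in 2.86% against 8.15%. A match is only a run of letters and not a shown binding site. The 8 NRF1 matches are shown in windows of 30 bases, with the matched letters in capitals, because they are the string most in excess over listed genes among the 3 described. On the minus strand lie Atp5g2 at chr15:102671070-102671099, Atp5j at chr16:84835105-84835134, Atp5k at chr5:108434430-108434459, Atp5l at chr9:44920963-44920992, Cox6a1 at chr5:115349101-115349130, Cycs at chr6:50566612-50566641 and Uqcr11 at chr10:80406808-80406837; Uqcrc1 lies on the plus strand at chr9:108936668-108936697.
Cox6a1: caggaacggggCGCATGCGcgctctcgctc
Uqcr11: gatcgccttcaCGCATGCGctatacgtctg
Uqcrc1: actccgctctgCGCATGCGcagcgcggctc
Cycs: ccatgctagctCGCATGCGcgcgcacaaac
Atp5g2: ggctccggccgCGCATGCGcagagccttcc
Atp5j: aggccagaataCGCATGCGtacagtgcagt
Atp5k: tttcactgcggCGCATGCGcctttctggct
Atp5l: aaccaataaCGCATGCGcatttcccccact

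Fold changes were set beside these letters. Of the 8 genes with the NRF1 letters 7 fell, with a median log2 fold change of -0.24, and of the 27 without them 23 fell, with a median of -0.23. For the GABPA letters the medians were -0.27 in the 12 genes with them and -0.22 in the 23 without.

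The match to the miR-690 seed, TAGCCTT, was in the annotated 3' UTR of 1 of the 43 complex genes (2.33%), against 11.2% of the 10386 tested genes with an annotated 3' UTR. These 3' UTRs are short, with a median of 204 nt against 1000 nt over all genes. The 1 match was in Cox5b on chromosome 1, at position 285 of a 3' UTR of 375 nt, and is shown with the match in capitals. The other 36 genes that fell have no match of this kind in the annotated 3' UTR used.
Cox5b: ttttctctgtgTAGCCTTggctggcctgga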

How the data were processed

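RNA sequencing values of 8 libraries came from 1 deposited table. Trimmomatic 0.38, edgeR 3.20.9 and the build mm10 are named in the submitters' processing notes, with no role; the aligner, the counter and any use of strand were not given in the sources used here. As deposited, the table was named RPKM, but each column summed to 1000000, so the values deposited by the authors were taken as CPM over the listed genes and the planned test was kept. Per the file headers, the authors also deposited a log2 fold change, a log2 average CPM, a likelihood ratio (a score), p-values and false discovery rates. All values were whole multiples of 1 read within 0.1 read; these reads gave depth and replicate comparisons only, and no count model was fitted.

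Genes at 0.5 CPM or more in at least 4 libraries were tested as log2(CPM + 0.5) in limma 3.58.1 under R 4.3.3 (eBayes with trend, two-sided, Benjamini-Hochberg over all genes, threshold 0.05). A log2 fold change on this scale understates changes of low genes. Of 10663 entries 10610 were matched to GENCODE release M21, 137 by an older symbol. Length and GC came from the principal transcript; this replaced the longest transcript after the lengths of the complex genes had been seen and before the fits, and the longest is an alternative. The trend fits used splines with 5 degrees of freedom per term. Near-identical copies were searched with BLAST 2.17.0. The code was tested on simulated data. Members, gene lists, sequence strings and tests were chosen with earlier results of these data known. Values per library are given for up to 4 genes per complex with the lowest adjusted p, all genes not called and related gene copies; of other lists, up to 4 genes with the lowest adjusted p are named.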

Additional observations from a re-analysis of the deposited data

Results flagged for a closer look

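Cox6a1 in miR-690oe replicate 4, at 364 CPM, lay far above the other 3 libraries of its group, which had 334, 331 and 331 CPM, by Dixon's test for a single distant value. It was still below the lowest control at 413 CPM. The test was run on 86 sets of 4 libraries, and chance alone marks about 1 in 20 of them.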

How the results depend on the processing

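The count of 37 lower complex genes ranged from 35 to 39 under other pseudocounts, filters, scalings and variance settings, and from 31 to 38 when 1 library was left out, with a median of -0.24 to -0.18. The same fits without 1 library gave 16 to 23 lower assembly factors, and 1405 to 2013 lower and 2351 to 2798 higher genes in all. Removing the length and GC trend changed these counts most. With that trend removed 10 complex genes, 6 assembly factors, 1023 genes in all were lower and 867 higher, and the median of the complex genes was -0.08. With only the length trend removed the values, in the same order, were 14, 7, 1137, 937 and -0.07. With the longest transcript in place of the principal one they were 11, 5, 957, 784 and -0.07, and with the trend fitted without the complex genes 11, 6, 1029, 864 and -0.08; both were chosen after seeing the data. Leaving out 1 library at a time with the trend removed, also added later, gave 5 to 10, 3 to 6, 609 to 992, 540 to 835 and -0.09 to -0.06. Replicate numbers did not pair the libraries: deviations of equal numbers correlated at -0.301, 0.312, -0.1 and -0.327. A replicate block gave 36 lower complex genes, and with the trend removed as well 7, 5, 737, 626 and -0.08. Signs turned for Atp5j (0.09 with the length and GC trend removed, with or without the block or with the longest transcript, and 0.06 with length alone), for Uqcrb (0.01) and Cox6c (0.02) with length alone, for Cox6c with the longest transcript (0.00), for Gabpa (-0.03, also with the block, and -0.02 with the longest transcript), for Ppargc1a (-0.01, also with the block, and 0.00 with the longest transcript), for Pdgfra (-0.03, also with the block, and -0.02 with length alone or the longest transcript) and for Slc25a5 with length alone (0.01). An edgeR fit was not run. The deposited values were taken as CPM, and the reads recovered from them served depth and replicate comparisons only. Depth limits Cox7a1 and Atp5l, which had at most 29 reads in any library.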
